A study of Mus musculus with 26 samples.

Results

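Ribosomal protein genes were followed through colitis-driven colon tumorigenesis in mice fed with or without GW3965, a synthetic agonist of the liver X receptors (LXRs), nuclear receptors that sense oxysterols. The 88 members were protein-coding genes of the GRCm38 annotation with an Rpl or Rps symbol followed by a digit (Rps6k kinases left out), of 35975 genes in the deposited tables. Of these, 54 were named for the large and 34 for the small subunit. The family was chosen by its rise at day 43 in these same samples, so its day 43 values are a description and were given no weight as a test.

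A ribosome joins a small subunit, which reads the messenger RNA, with a large subunit, which forms the peptide bonds, and each carries a set of proteins held in fixed proportion on ribosomal RNA. Genes for these proteins are therefore usually expressed together, and many of their messengers begin with a C followed by a run of pyrimidines, through which growth signalling by mTOR sets their translation. In the gut, ribosome production is high in the dividing crypt cells and in cells that secrete protein, such as plasma cells.

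Bulk RNA-seq of polyA RNA covered 26 distal colon biopsies from wild-type C57BL/6J males (Taconic), about 10 weeks old at the start, on a standard diet (STD) or a GW3965 diet. Treated mice received azoxymethane (AOM, 10 mg/kg), a carcinogen that acts on the colon, and entered a course of 3 cycles, each with 7 days of dextran sodium sulfate (DSS), which injures the colon lining, and by the labels 7 days of recovery, while the study's methods give a longer interval on water, so the place of day 43 within the cycles is not settled here. Along this course 3 samples per diet were taken at day 22, day 43 and day 70 after AOM. Day 0 stands for 4 samples per diet from mice that received neither agent, of which 2 came after 22 days on the diet and 2 after 43 days. The day 22 and day 43 mice of a diet shared 1 cage and the day 0 mice of each diet were in another, so diet, treatment and cage cannot be told apart at these days, and each day 70 sample had a cage of its own. The sources differ on whether a sample is a single mouse or a pool of several, so P values measure the spread between these samples.

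Total estimated counts per sample ranged from 18195345 to 41522204. RNA integrity numbers (RIN, where 10 is intact) were 10 at day 0 and at least 9.1 at day 22 and day 70, but 2.6, 8.4 and 7.8 for STD and 8, 6.8 and 9.3 for GW3965 at day 43. In 1 GW3965 day 0 sample (43 diet days, replicate 2) the title and the diet label disagree, and it was placed by its title. GW3965 day 70 replicate 1 had a CPM (counts scaled to library size) of 13215 on 4 skeletal muscle markers summed, against 8.72 to 572 in the other 25 samples. Colon epithelium markers were measured in every group, at 2775 to 17558 CPM summed.

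The family took up a larger share of counts at day 43 than at day 0 on both diets. At day 0 on STD the members held 5.33%, 5.93%, 6.45% and 5.37% of all gene counts per sample. At day 22 they held 6.06%, 8.87% and 6.95%, at day 43 16.7%, 14.4% and 18.6%, and at day 70 4.57%, 6.57% and 6.66%. The day 43 samples therefore lay above every other STD sample, and the day 70 samples lay on either side of the day 0 range.

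On GW3965 the same share was 5.74%, 5.59%, 6.51% and 6.36% at day 0. It was 6.67%, 7.20% and 10.7% at day 22, 13.1%, 17.6% and 10.0% at day 43, and 3.96%, 4.05% and 5.45% at day 70. Here the lowest day 43 sample (10.02%) fell below the highest day 22 sample (10.72%), and all day 70 samples lay under all day 0 samples. Group means were 5.77% ± 0.528 (SD, n = 4) and 16.5% ± 2.10 (n = 3) for STD at day 0 and day 43, and 6.05% ± 0.453 (n = 4) and 13.6% ± 3.79 (n = 3) for GW3965. No P value was computed for the summed share.

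**Figure D1:**
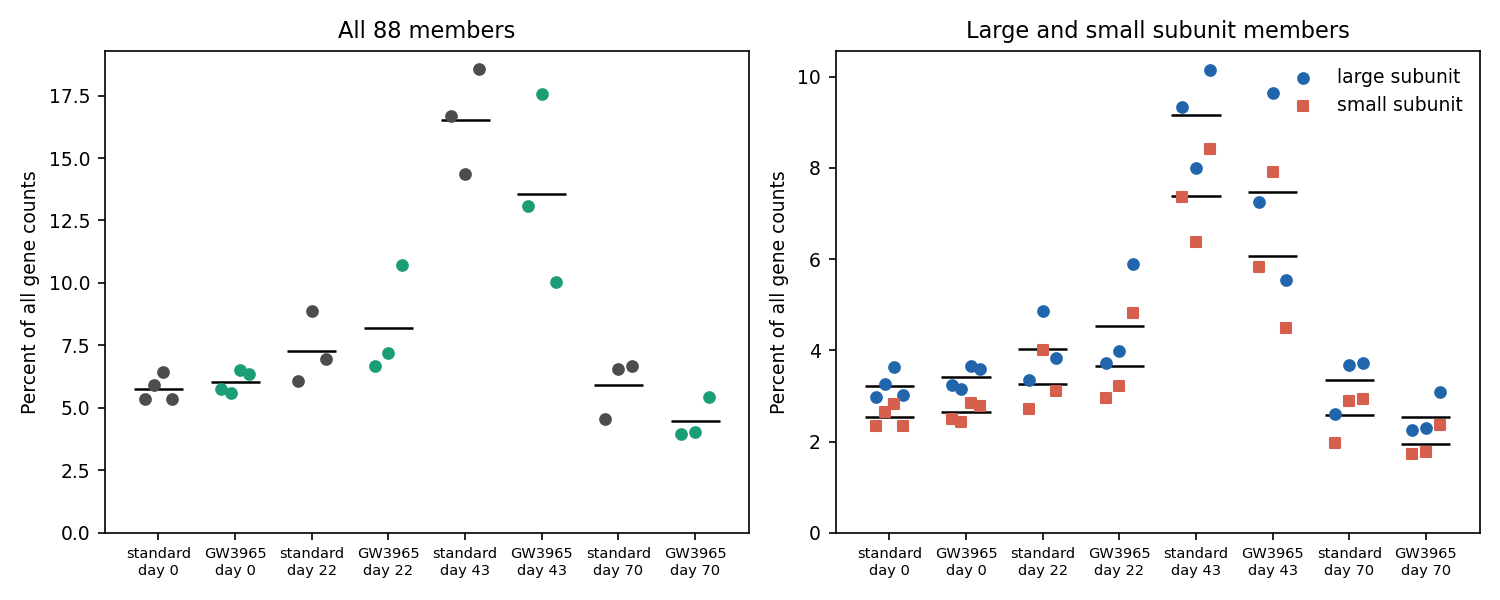
Percent of all gene counts on the 88 members per sample (left) and on large and small subunit members (right), by diet and day; points are samples and lines are group means. The day 43 samples lie between 10.02% and 18.56% and the day 0 samples between 5.33% and 6.51%.

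Both subunits rose at day 43. Large subunit members went from 3.23% ± 0.292 (SD, n = 4) at day 0 to 9.16% ± 1.08 (n = 3) at day 43 on STD, and from 3.41% ± 0.247 to 7.47% ± 2.07 on GW3965. Small subunit members went from 2.54% ± 0.240 to 7.38% ± 1.02 on STD and from 2.64% ± 0.206 to 6.08% ± 1.73 on GW3965. The ratio of large to small subunit counts stayed between 1.205 and 1.331 in all 26 samples. Its mean was 1.271 at day 0 and 1.243 at day 43 on STD, with overlap. On GW3965 it was 1.292 and 1.232, and day 43 (1.219 to 1.243) lay below day 0 (1.284 to 1.304). In proportion of counts, small subunit members thus rose slightly more. The share of TPM (abundance corrected for transcript length) did not give this order. From day 0 to day 43 large subunit members went from 8.14% to 16.94% of TPM on STD and from 8.85% to 14.14% on GW3965. Small subunit members went from 7.36% to 14.43% and from 7.88% to 12.30%. Which subunit rose more thus depends on the measure. Averaged over the diets, large subunit members made up 54.7% and small subunit members 45.3% of the difference of 9.14 percentage points.

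Several other measures also moved at day 43, up or down, and their part in the share was not tested. Short genes were protein-coding genes outside the family with a mean transcript length under 1000 bases, without mitochondrial and immunoglobulin genes. Their share of counts was 8.33% ± 0.369 (SD, n = 4) at day 0 and 16.04% ± 1.88 (n = 3) at day 43 on STD, and 8.32% ± 0.403 and 14.8% ± 2.59 on GW3965. Among the GW3965 day 43 samples the highest family share (17.6%) was in the library of RIN 6.8. The lowest (10.0%) was in that of RIN 9.3. The STD library of RIN 2.6 lay between its replicates in share of counts. In share of TPM (abundance corrected for transcript length) that library, at 34.2%, lay above its replicates, at 26.4% and 33.5%. All 4 plasma cell markers summed reached 8196 to 31274 CPM at day 43 on STD against 447 to 9657 at day 0, which overlap, and 9745 to 27839 against 433 to 1494 on GW3965. The 4 myeloid markers summed were 2034 to 4577 CPM against 287 to 552 on STD, and 1650 to 4978 against 265 to 440 on GW3965. The 4 stratified epithelium markers summed were at most 3.44 CPM in every day 0 sample. At day 43 they were 387 to 1298 CPM on STD and 116 to 2985 CPM on GW3965, and at day 70 on STD 2416 to 3562 CPM. The 4 T cell markers summed were 44.4 to 119 CPM against 7.77 to 25.99 on STD and 50.6 to 141 against 9.14 to 12.9 on GW3965. The 4 B cell markers summed were 68.8 to 315 CPM against 27.9 to 181 on STD and 245 to 665 against 49.8 to 113 on GW3965. The 6 smooth muscle markers summed were 3627 to 9399 CPM against 8133 to 23408 on STD, where 5 were called lower, and 6326 to 13232 against 5446 to 14074 on GW3965. Colon epithelium markers summed were 4480 to 8018 CPM against 7483 to 12462 on STD, which overlap. On GW3965 they were 7474 to 8694 CPM against 9120 to 13403, without overlap. In bulk tissue, more cells of a type and more RNA per cell cannot be told apart.

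A few genes carried much of the rise in counts. Contributions are differences in percentage points of all counts, which favour long and abundant messengers. Rpl41, which encodes the shortest ribosomal protein (ENSMUSG00000093674.7, chr10:128548114-128549305, minus strand), gained 1.27 points on STD and 0.760 on GW3965, or 11.1% of the family's rise. Rpl13a (ENSMUSG00000074129.14, chr7:45125558-45128761, minus strand), a large subunit protein also known from translational silencing of inflammatory messengers, gained 1.15 and 0.593 points, or 9.54%. Rps14, a small subunit protein needed for maturation of the small subunit's RNA, gained 0.706 and 0.464 points, or 6.40%.

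Next came Rpl17, a protein at the tunnel through which the nascent chain leaves, with 0.485 and 0.268 points. Rps3 (chr7:99477896-99483738), a small subunit protein at the messenger entry site, gained 0.463 and 0.279 points, and Rpl9 (chr5:65388364-65391444), a large subunit protein, 0.363 and 0.278. Rpl41 and Rpl13a together held 20.6% of the rise, and the first 11 genes 50.6%. The ranking leaves out counts on near-identical copies outside the family. Averaged over the diets, the copies of Rpl5 held 1524 CPM at day 0 and 4418 CPM at day 43, against 62.2 and 159 CPM on Rpl5 itself. Ranked by the deposited TPM (which corrects abundance for transcript length), the first 3 were again Rpl41, Rpl13a and Rps14, with 16.9%, 12.7% and 7.52% of the family's rise in TPM.

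**Figure D2:**
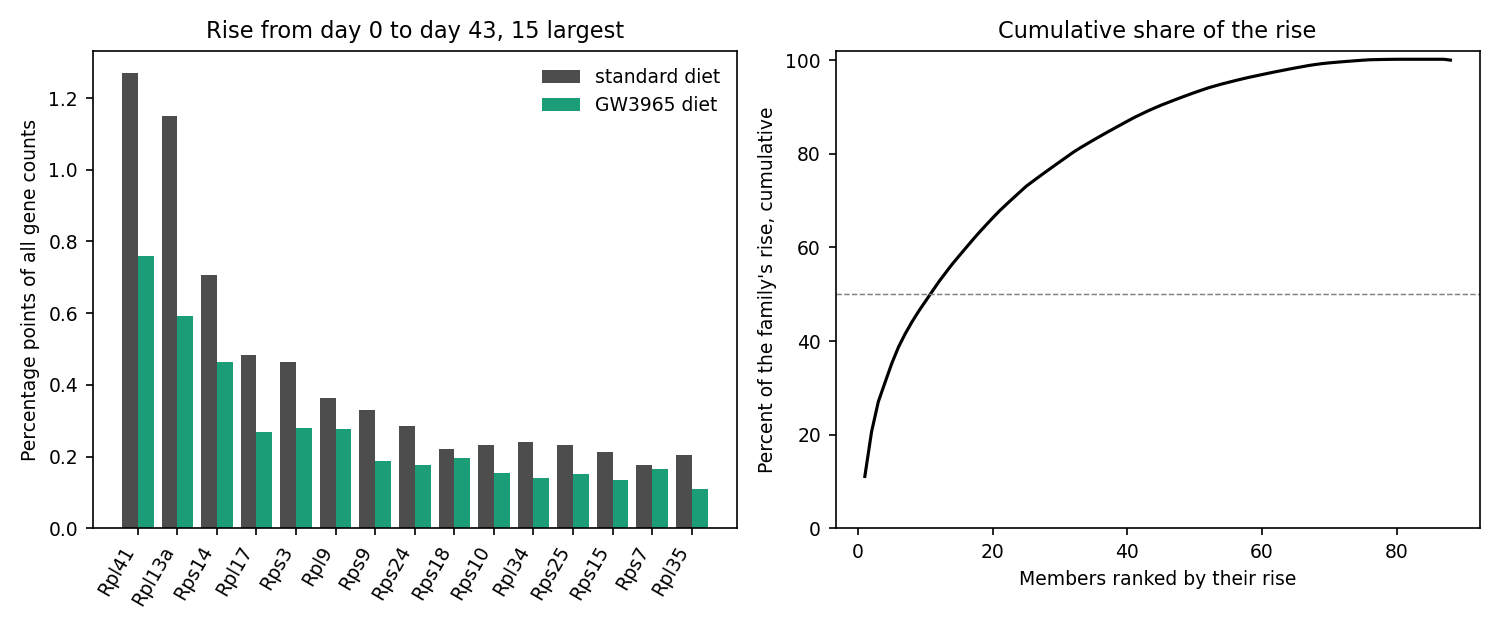
Left, difference between day 43 and day 0 in percentage points of all gene counts for the 15 members with the largest rise, by diet (bars). Right, cumulative percent of the family's rise over the 88 members in rank order, where the dashed line marks 50%; the first 11 members reach 50.6%.

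The family also changed its make-up. Rpl41 and Rpl13a together were 6.48% ± 0.557 (SD, n = 4) of all family counts on STD at day 0, 8.73% ± 1.65 (n = 3) at day 22, 16.6% ± 3.31 at day 43 and 5.98% ± 0.697 at day 70. On GW3965 the values were 5.81% ± 0.361, 10.6% ± 1.68, 12.2% ± 2.19 and 5.35% ± 0.289. Rpl4, a large subunit protein that lines the exit tunnel, went the other way, from 2.53% ± 0.178 of family counts at day 0 to 0.747% ± 0.307 at day 43 on STD and from 2.65% ± 0.123 to 1.19% ± 0.362 on GW3965.

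Single genes are given below as CPM scaled by TMM, a normalisation in which most genes are taken not to change. Rpl41 was at 1326, 1927, 2123 and 1681 CPM in the STD day 0 samples and at 18659, 12520 and 23438 CPM at day 43. On GW3965 it was at 1640, 1299, 1818 and 1750 CPM at day 0 and at 11269, 17938 and 5030 CPM at day 43. Day 43 lay above day 0 without overlap on both diets, with log2 fold changes of 3.37 and 2.81. At day 22 Rpl41 had reached 2480, 4746 and 2554 CPM on STD and 3742, 3463 and 9494 CPM on GW3965, and at day 70 it was at 1177, 1827 and 1862 CPM and at 822, 955 and 1414 CPM.

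Rpl13a was at 1581, 1967, 1864 and 1483 CPM at day 0 on STD and at 20725, 8938 and 20582 CPM at day 43, a log2 fold change of 3.28. On GW3965 it went from 1508, 1394, 1792 and 1731 CPM to 9293, 13914 and 4671 CPM, a log2 fold change of 2.53. The highest and the lowest day 43 values of Rpl13a thus came from the same GW3965 samples as those of Rpl41. Rps14 was at 1918, 3427, 1653 and 1343 CPM at day 0 on STD and at 9275, 8611 and 16799 CPM at day 43. On GW3965 Rps14 was at 1699, 1606, 1892 and 1800 CPM and at 7904, 10835 and 4757 CPM. Its log2 fold changes were 2.47 and 2.16.

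Across all members tested, the day 43 difference was close to general. With edgeR's quasi-likelihood test and Benjamini-Hochberg adjustment over 17063 genes, 83 members passed the filter on low counts, 49 of the large and 34 of the small subunit. On STD 79 of these 83 were higher and 0 lower at day 43 at FDR < 0.05, where 30.8% of all genes tested were called higher and 24.2% lower. On GW3965 80 were higher and 1 lower, where 26% of all genes were called higher and 19.3% lower. Nothing is read from these calls, because the rule used the same contrast. The median log2 fold change was 1.63 on STD and 1.45 on GW3965, against 0.14 and 0.07 over all genes, and it was 1.55 for large and 2.00 for small subunit members on STD and 1.30 and 1.66 on GW3965. Library totals without TMM lower the median of all genes to -0.27 on STD and -0.25 on GW3965 and that of the members to 1.21 and 1.05. A further fit left out every day 43 library of RIN under 9, which were 2 of GW3965 and all of STD. The median on GW3965 was then 0.84, where the 1 GW3965 day 43 sample left was taken to vary like the other groups.

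Next to Rpl41 and Rpl13a, the highest log2 fold changes belonged to Rpl34 (2.83 on STD, 2.22 on GW3965) and Rpl12 (2.84 and 2.16), a protein at the base of the stalk that recruits elongation factors. Most Rpl12 reads may have gone elsewhere, since its 5 near-identical copies outside the family held 905 CPM at day 0 and 2677 CPM at day 43, against 29.5 and 128 CPM on Rpl12 itself. Rpl3l, a muscle-specific relative of Rpl3, also ranked high (3.43 and 4.79) on fewer than 2 CPM in any day 43 sample, and it was not called on either diet.

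**Figure D3:**
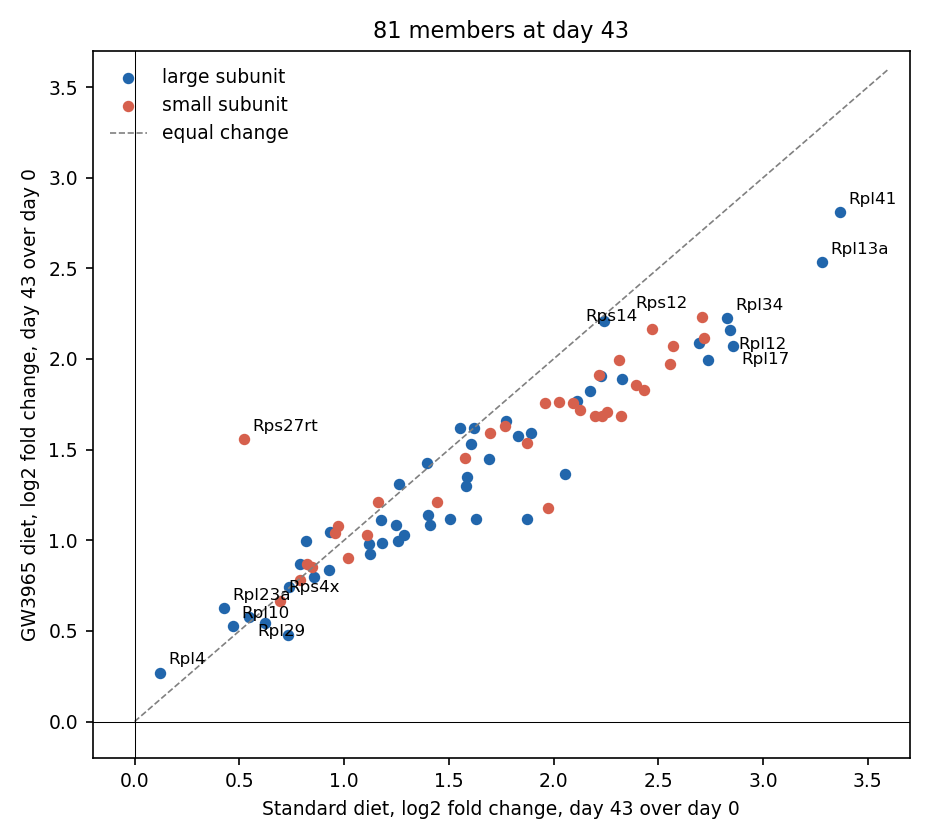
log2 fold change of day 43 over day 0 on STD (x) and GW3965 (y) for 81 of the 83 members tested, without Rps12-ps3 and Rpl3l; each point is a gene, coloured by subunit, and the dashed line marks equal change. Rpl41 (3.37, 2.81) and Rpl4 (0.12, 0.27) lie at opposite ends and all 81 points are above 0 on both axes.

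The members kept their order between the diets. Over 81 members the log2 fold changes on STD and GW3965 had a Pearson r of 0.94 and a Spearman rho of 0.94, as a description across genes that share libraries and normalisation. Over all 83 members r was -0.14 and rho 0.88, and the difference rests on Rps12-ps3 and Rpl3l. The mean log2 fold change had a Spearman rho of -0.25 with transcript length, 0.06 with GC content and -0.03 with the day 0 level over the 81.

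The lowest fold changes belonged to Rpl4, Rpl23a, Rpl10 and Rpl29. Rpl4 (ENSMUSG00000032399.8, chr9:64173375-64178666) was at 1401, 1404, 1339 and 1266 CPM at day 0 and 1132, 1839 and 1446 CPM at day 43 on STD. On GW3965 it was at 1517, 1387, 1481 and 1486 CPM and at 1767, 1976 and 1564 CPM. The groups overlapped on STD and did not on GW3965. Its log2 fold changes were 0.12 and 0.27, neither called, and with library totals in place of TMM they were -0.28 and -0.08, so its direction depends on the scaling.

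In TPM, Rpl4 lay below its day 0 range in every day 43 sample. It was at 1310, 1206, 1252 and 1228 TPM at day 0 and at 508, 867 and 576 TPM at day 43 on STD. On GW3965 it was at 1347, 1449, 1435 and 1458 TPM and at 886, 772 and 1064 TPM. Rpl23a, a large subunit protein at the tunnel exit where targeting factors dock, was at 3396, 3080, 3254 and 3119 TPM at day 0 and at 1455, 2893 and 1936 TPM at day 43 on STD. On GW3965 Rpl23a was at 3587, 3582, 3537 and 3600 TPM and at 2805, 2751 and 3117 TPM. As a share of counts only Rpl4 was lower at day 43 on both diets, whereas by mean TPM 15 members were, 10 of them of the large subunit, including Rpl4, Rpl23a, Rpl10, Rpl29 and Rpl7l1.

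With TMM those last 4 stayed above 0. Rpl23a had log2 fold changes of 0.43 on STD and 0.63 on GW3965, Rpl29 0.55 and 0.57, and Rpl7l1, a relative of Rpl7, 0.73 and 0.48. Rpl10, which joins the large subunit late, had 0.47 and 0.53. Rpl10 shares 85.7% of its 31-base words with other genes, Rpl10-ps3 among them, so reads can be split between the pair. Their summed level was 1065 CPM (library totals) at day 0 and 1876 CPM at day 43 on STD, and 1197 and 1883 CPM on GW3965.

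Departures from the family show which members did not follow its summed count. They come from the contrast behind the choice of the family and are given as a description, with no test. With the members' total as the library size, members must fall on both sides of the family. At an edgeR FDR < 0.05 over all genes, 22 members were higher and 37 lower than the family at day 43 over both diets, 11 and 26 of them large and 11 and 11 small subunit genes, where 6.53% of all genes were higher and 75.5% lower. Nothing is read from these counts, which non-members help to set, and which came to 29 higher and 32 lower with a TMM factor over the members and to 13 and 22 with RIN as a further term.

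Rpl41 exceeded the family by 1.30 on the log2 scale (SE 0.135) and Rpl13a by 1.12 (SE 0.127). Rpl34 (0.75), Rpl12 (0.73), Rpl17 (0.69), Rps14 (0.57), Rps3 (0.36, SE 0.0941) and Rpl9 (0.26, SE 0.120) were also above it. With RIN in the model Rpl12 was at 0.36, and Rpl12 and Rps3 no longer passed the threshold. Rpl9 did not pass it in 13 of 18 other settings.

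Below the family, Rpl4 fell by 1.46 on the log2 scale relative to it (SE 0.175). Rpl23a was at -1.14, Rpl10 at -1.12, Rpl29 at -1.11 and Rpl7l1 at -1.08. These values are relative: a member below the family could still be above its own day 0 level, as Rpl29 was on GW3965 with TMM.

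**Figure D4:**
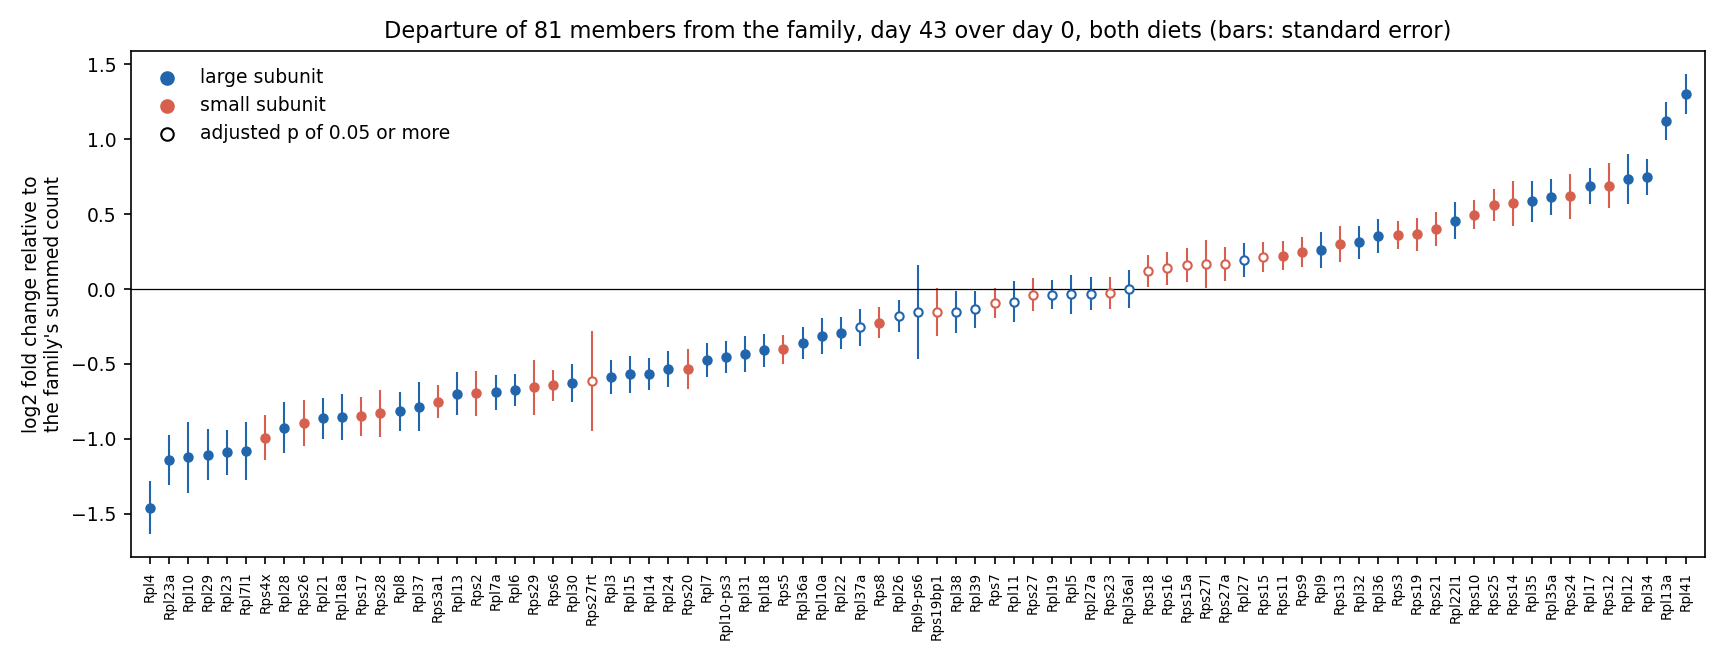
Departure of 81 members from the family's summed count, day 43 over day 0 over both diets, on the log2 scale (y), ordered by value; points are edgeR estimates with standard errors, filled where FDR < 0.05. Values run from -1.46 (Rpl4) to 1.30 (Rpl41).

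One member could not be placed. Rps12-ps3 (chr19:59322290-59322783), an annotated coding copy of Rps12, shares 100% of its 31-base words with other genes, so estimated counts can pass between copies. It was at 2475, 0 and 1540 CPM at day 43 on STD and at 0, 0 and 0 CPM on GW3965, against 0.614 to 71.6 and 2.29 to 29.9 CPM at day 0. It is the 1 member called lower on GW3965, and no fold is given for it.

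Paralogues, gene pairs in which a relative can stand in for the classical protein, mostly rose with their parents. Rpl22l1 was at 87.6, 97.6, 113 and 101 CPM at day 0 and 587, 379 and 450 CPM at day 43 on STD, and at 90.9, 75.9, 92.0 and 81.9 CPM and 361, 622 and 199.5 CPM on GW3965. Its parent Rpl22, known to repress Rpl22l1, had log2 fold changes of 1.58 and 1.30 against 2.24 and 2.21 for Rpl22l1. Relative to the family Rpl22l1 was at 0.46 (SE 0.124) and Rpl22 at -0.29 (SE 0.107), on opposite sides.

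Rpl36al, with log2 fold changes of 1.89 and 1.59, was at 0.00 relative to the family, and its parent Rpl36a, with 1.63 and 1.12, at -0.36 (SE 0.105). Rps27l, a target of p53, had 2.20 and 1.69 and Rps27 1.77 and 1.63, and relative to the family they were at 0.17 (SE 0.158) and -0.04 (SE 0.110). Rps27rt, which shares 92.4% of its 31-base words with other genes and so cannot be cleanly told from Rps27, was at 37.3, 104 and 10.2 CPM at day 43 on STD and 138, 175 and 68.6 CPM on GW3965, against 22.5 to 54.9 CPM at day 0. Rpl7l1 was at -1.08 relative to the family and Rpl7 at -0.47. Rpl3 had log2 fold changes of 1.26 and 0.99, and Rpl39 1.55 and 1.62.

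The 5 members under the filter added nothing measurable. Rpl39l had 55 counts over all 26 samples, Rpl36a-ps1 74 and Rpl9-ps1 5, and the testis gene Rpl10l and Rpl36-ps4 had 0. Rps19bp1 matches the symbol rule but encodes a nucleolar protein that binds RPS19 and is no part of the ribosome. It followed the family, with log2 fold changes of 1.98 and 1.18 at day 43 and a departure of -0.16 (SE 0.161).

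The starts of the transcripts were read because a pyrimidine tract there is a known shared feature of this family. The first 30 bases of the transcript with the most counts are printed 5′ to 3′ from the GENCODE transcripts on GRCm38, for genes that rose more and less than the family. Capitals mark a C followed by 4 or more bases that are C or T, beginning within the first 10 bases on the gene's strand.

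Rpl41 (chr10:128549276-128549305, minus strand): aggtgctggtgttgaaataatacaatatcc
Rpl13a (chr7:45128732-45128761, minus strand): agaaaccctgcgacaagacctcctcctttc
Rpl34 (chr3:130730369-130730398, minus strand): aCTTCCTgtccggcgccgtcacacttgacc
Rpl4 (chr9:64173375-64173404, plus strand): CTTTTCCTgtgggagcagccgggtagagag
Rpl10 (chrX:74270860-74270889, plus strand): ttttCCTCTggcgcggtgagtgagttcggt
Rpl23a (chr11:78183555-78183584, minus strand): aagctcatgggaattgggctgggccatcct

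Rpl34 and Rpl4, at opposite ends of the day 43 order, both hold such a run, and Rpl41, Rpl13a and Rpl23a hold none in this annotated window. A run was present in 29 of 88 members (32.95%), against 2421 of 14675 other protein-coding genes with counts in every sample (16.5%). At the first base it opened 10 members (11.36%) and 343 other genes (2.337%). Among the 20 members with the highest day 43 rank 6 held a run, and among the 20 with the lowest 7 did. Annotated starts can lie several bases from the start used in tissue, so an absent run says only that the letters are not in this window.

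Day 22 against day 0 was not used to choose the family. On STD 0 of 83 members were called (edgeR, FDR < 0.05) in either direction, where 7.56% of all genes were called higher and 1.99% lower. There were 12 members at an unadjusted P under 0.05 and 1 called by DESeq2. The median log2 fold change was 0.41, against 0.01 over all genes, and 78 of 83 were above 0.

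On GW3965 17 members were higher at day 22 and 0 lower, 9 large and 8 small subunit genes, where 13.7% of all genes were called higher and 7.04% lower. The median was 0.55, against 0.03 over all genes. Rpl41 rose by 1.77 (SE 0.389, edgeR FDR = 0.00322), Rpl22l1 by 1.28 (SE 0.316, FDR = 0.00726), and Rps25, a small subunit protein needed for translation from internal entry sites, by 1.17 (SE 0.304, FDR = 0.00976). Rpl36al rose by 0.91 (SE 0.239, edgeR FDR = 0.0107) and Rps21 by 1.05 (SE 0.29, FDR = 0.014).

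These calls rest on 1 sample. Rps25 was at 962, 1012 and 2283 CPM in the 3 GW3965 day 22 samples, against 645, 551, 678 and 646 CPM at day 0, and Rps21 at 636, 745 and 1402 CPM against 444, 378, 506 and 465. All day 22 values of these genes lay above all day 0 values, with replicate 3 highest. Without GW3965 day 22 replicate 3, 0 of the 83 members were called and Rpl41 had a log2 fold change of 1.15 (edgeR FDR = 0.0576). That library had a RIN of 9.1 and the largest share of counts on short genes outside the family at day 22 (13.7%).

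At day 70 the family was near its day 0 level on STD and under it on GW3965. Tissue markers differed strongly between these libraries, since the 4 stratified epithelium markers summed were 14153, 4.05 and 9782 CPM in the 3 GW3965 samples and 2416 to 3562 CPM on STD, and their part in the results at day 70 was not tested. On STD 2 members were higher and 1 lower (edgeR, FDR < 0.05), fewer than the 16.7% higher and 13.7% lower of all genes tested, with a median of 0.06 against 0.04 over all genes. Rps19bp1 rose by 0.76 (SE 0.262, edgeR FDR = 0.0325), Rpl10 by 0.53 (SE 0.197, FDR = 0.0482), and Rps14 was at -0.87 (SE 0.322, FDR = 0.0456). Rps14 was at 879, 1264 and 1287 CPM at day 70, under all its day 0 values. None of the 3 calls held in every setting, and 0 were made without STD day 70 replicate 2 or 3, or without STD day 0 (22 diet days) replicate 1 or 2.

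On GW3965 1 member was higher and 6 lower at day 70, where 14.7% of all genes were called higher and 6.82% lower, and 78 of 83 were below 0 with a median of -0.33 against 0.11 over all genes. Rpl9 was at 571, 576 and 792 CPM at day 70 against 1538, 1306, 1612 and 1525 at day 0, with no overlap, and its log2 fold change was -1.21 (SE 0.299, edgeR FDR = 0.00625). Rps14 was at 759, 723 and 975 CPM against 1699, 1606, 1892 and 1800, a log2 fold change of -1.09 (SE 0.324, edgeR FDR = 0.0194). Rps7, a small subunit protein that also binds MDM2, was at 599.9, 609 and 859 CPM against 1237, 1076, 1219 and 1144, a log2 fold change of -0.76 (SE 0.256, FDR = 0.0368) whose call was lost in 7 other settings. These 3 genes thus lay below their day 0 range in each GW3965 day 70 sample.

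Rps27 (-0.73), Rps27rt (-1.38) and Rpl9-ps6 (-1.54, at under 2 CPM at day 0) were the other members called lower. The member called higher was Rpl3l, at 101, 0 and 0.0706 CPM, which stood out only in replicate 1, the library with skeletal muscle markers, and its call was lost without that library (edgeR FDR = 0.880). Without GW3965 day 70 replicate 1 there was 1 call, without replicate 2 there were 2 and without replicate 3 there were 11, so the number called is loosely fixed.

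**Figure D5:**
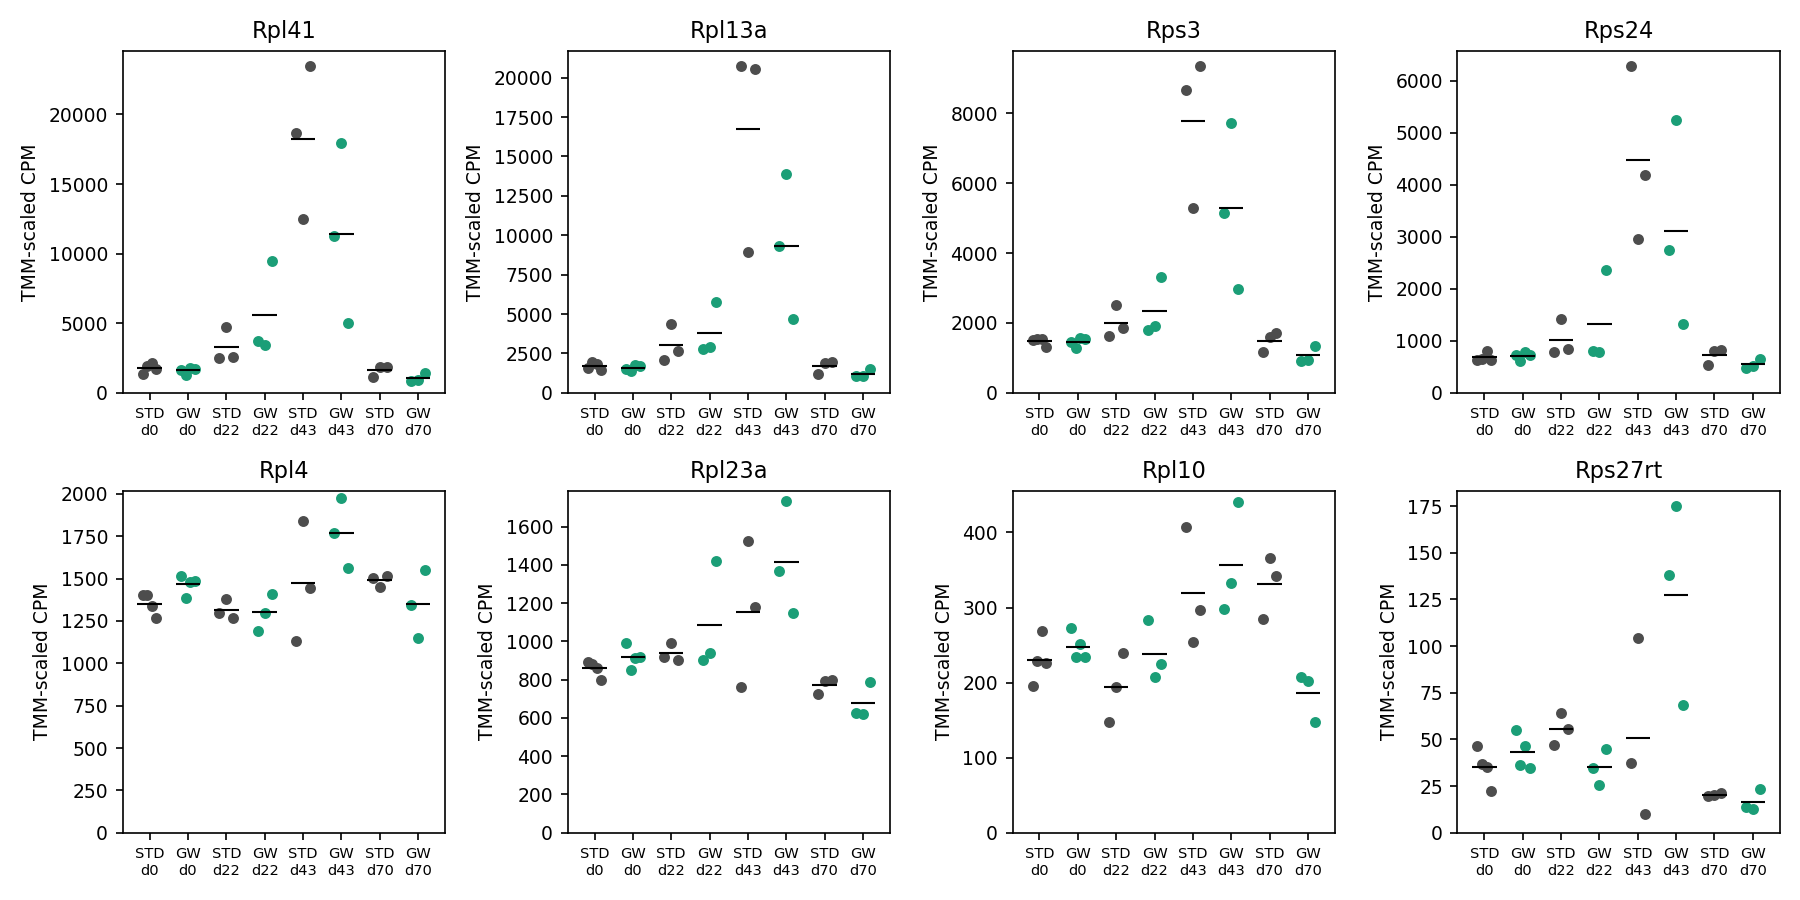
TMM-scaled CPM per sample for 8 members by diet (STD, GW) and day (d0 to d70); points are samples, lines are group means, and each panel has its own axis from 0. At day 43 Rpl41 lies between 5030 and 23438 CPM and Rpl4 between 1132 and 1976 CPM; Rps24 was chosen after its values were seen.

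The comparison of the diets asked whether the family differed between the diets at a given day. By the study's methods the biopsies matched tumour areas. At day 43 the study saw tumours almost only on the standard diet, and at day 70 on both diets to different extents. Diet and tumour content therefore cannot be told apart at day 43 and day 70. At day 0, 0 members were called by edgeR and 0 had an unadjusted P under 0.05, and DESeq2 called 0, with a median log2 difference (GW3965 over STD) of 0.08; 0.0293% of all genes were called higher and 0% lower. At day 22 0 members were called, 3 had an unadjusted P under 0.05 and DESeq2 called 1, where edgeR called 0.0527% of all genes higher and 0.0234% lower. The median was 0.24, against -0.02 over all genes, and 79 of 83 members, which share the same libraries, were above 0.

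At day 43 0 members were called, 4 had an unadjusted P under 0.05 and DESeq2 called 1, where edgeR called 0.082% of all genes higher and 0.0234% lower. The median difference was -0.17, against -0.02 over all genes, and 59 of 83 members were below 0. For Rpl41 the log2 difference was -0.67 (SE 0.417, edgeR FDR = 0.433), for Rpl13a -0.85 (SE 0.381, FDR = 0.289) and for Rpl4 0.26 (SE 0.17, FDR = 0.45). With 3 samples a group and a family share that spread from 10.0% to 17.6% on GW3965, these differences did not pass the test.

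At day 70 82 of 83 members were lower on GW3965, with a median of -0.38 against 0.03 over all genes, and 1 was called lower and 0 higher, where 0.158% of all genes were called lower and 2.91% higher. That gene was Rpl10, at 285, 366 and 342 CPM on STD and 207, 202 and 148 CPM on GW3965, without overlap (log2 difference -0.83, SE 0.214, edgeR FDR = 0.0382). The call was lost in 8 of 17 other settings, among them each of the 3 that leave out an STD day 70 sample. Summed with Rpl10-ps3, with which reads can be split, the level was 1074, 1364 and 1410 CPM (library totals) on STD and 827, 940 and 1137 CPM on GW3965, and the diets overlapped. The test of whether the diet effect at day 22, day 43 or day 70 differed from that at day 0 called 0 members at each day (edgeR, the only tool run for it), with 2, 2 and 3 at an unadjusted P under 0.05.

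Other genes of the translation pathway were taken from fixed lists. Among ribosomal proteins outside the symbol rule, Rplp0, of the stalk, had log2 fold changes of 1.76 on STD and 1.38 on GW3965 at day 43, and Rack1, a scaffold on the small subunit, 1.15 and 1.19. Of 15 translation factors and other genes with known pyrimidine tracts, 11 were higher and 2 lower at day 43 on STD, where 30.8% of all genes were higher and 24.2% lower, and 9 and 2 on GW3965, where 26% and 19.3% were. Eef1a1, which brings aminoacyl-tRNA to the ribosome, had 1.25 and 1.11 and Tpt1 1.46 and 1.16, whereas Eef2, the translocation factor, was at -1.22 and -0.95.

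Of 23 genes of ribosome assembly and ribosomal RNA synthesis, 5 were higher and 5 lower at day 43 on STD. On GW3965 5 were higher and 7 lower. Over all genes 30.8% were higher and 24.2% lower on STD, and 26% and 19.3% on GW3965. The share called higher was thus no larger than over all genes, while the share called lower on GW3965 was larger. Medians were -0.06 and -0.37, against 0.14 and 0.07 over all genes. The nucleolar protein Ncl had -1.24 and -1.12, Ubtf, a factor of RNA polymerase I, -0.37 (not called) and -0.69, and Nhp2, of the pseudouridylation complex, 2.31 and 1.68. At day 70, when 2 members were higher on STD, 20 of these 23 were higher with a median of 0.95, against 16.7% of all genes, and on GW3965 5 were higher with a median of 0.51, against 14.7%. Of 78 mitochondrial ribosomal proteins, 61 were higher and 3 lower at day 43 on STD and 57 and 2 on GW3965, with medians of 0.99 and 0.77. Of 76 nuclear oxidative phosphorylation subunits tested, 52 were higher and 7 lower on STD and 58 and 4 on GW3965, both set against the same shares over all genes at day 43.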

How the data were processed

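Reads were quantified by the authors with kallisto against GRCm38 transcripts, and they deposited expected counts (estimated counts per transcript, not normalised) and TPM per sample. The kallisto version is not given in the sources used here. Of 119414 transcripts, 116728 (97.8%) were matched to GENCODE genes, and 0.615% to 0.999% of counts per sample were on unmatched transcripts. Expected counts were added up per gene and then rounded.

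Differential expression used edgeR 4.0.16 (R 4.3.3) with filterByExpr, TMM and the quasi-likelihood F-test over 8 groups, with FDR < 0.05 by Benjamini-Hochberg over 17063 genes. DESeq2 1.42.0 was an alternative, and tables were handled with pandas 2.3.3. The study's model held the percentage of ribosomal RNA, and how it was computed is not given in the sources used here. The percent of counts on the members was taken in its place, which may be another quantity. Because it removes the family's own change, it was run only as an alternative. For departures, a description, the library size was the members' total count. Scripts were tested on simulated data. P values rest on the spread between samples. Alternatives were DESeq2, library totals, no filter, protein-coding transcripts only, a TMM without the members, RIN or the ribosomal percentage as a term, a replicate block, and samples left out. Adding the counts of near-identical copies and leaving out day 43 libraries of RIN under 9 were chosen after seeing the data.

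The members and gene lists were chosen with earlier results of these data known. Members were named by a rule: the 6 largest contributions to the rise, the 5 highest and 5 lowest day 43 fold changes, members under 0, paralogues with their parents, the 5 smallest P values among calls per comparison, members under the filter, and those outside the ribosome. Non-members are the most abundant of their list. Near-identical copies were found by shared words of 31 bases. Protein sequences were not used here. The count over the ribosomal proteins outside the symbol rule is not reported here.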

Additional observations from a re-analysis of the deposited data

Results flagged for a closer look

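In GW3965 day 0 (22 diet days) replicate 2, Rpl34 was at 442.6 CPM against 532.9, 535.8 and 541.8 CPM in the other 3 samples of its group, a gap of 0.911 of the range by Dixon's test. It was the only 1 of 66 values looked at that stood apart, where chance sets apart about 1 in 20.

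At day 70 Rpl10 moved in opposite directions on the 2 diets, by 0.53 on STD and -0.42 on GW3965 on the log2 scale. The difference between the diets was -0.94 (edgeR, unadjusted P = 0.00301, FDR = 0.160).

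At day 22 Rps12-ps3, whose sequence words are all shared with other genes, was at -6.63 on STD and 3.95 on GW3965, a difference of 10.6 (edgeR, unadjusted P = 0.00329, FDR = 0.731). These fitted values depend on the prior count, because the STD day 22 samples were at 0.0537, 0 and 0.723 CPM. Among 99 pairs of changes looked at, in these 2 every sample of a diet lay on the same side of its day 0 mean and the diets on opposite sides.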

How the results depend on the processing

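Among called results no direction was reversed in the settings tried; Rpl4 at day 43, not called, changed sign under library totals. Of 466 settings of single members 402 kept their call and 64 lost it. The day 43 difference in family share was 9.14 percentage points, 12.789 as a share of TPM and 13.818 without the 1% of other genes with the highest counts, and leaving out a sample gave 8.14 to 10.02.

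Counts of members called moved by over 1.5 times as follows. With the ribosomal percentage as a term, 0 were called at day 43 on STD and 0 on GW3965, where the term removes the family's own rise by construction, 10 at day 70 on STD and 7 at day 22 on GW3965. With DESeq2 there were 1 (STD day 22), 13 (GW3965 day 70), 1 (diets at day 22) and 1 (diets at day 43). With library totals there were 11 (GW3965 day 22), 14 (GW3965 day 70) and 0 (diets at day 70). Without the filter 0 were called on STD at day 70. Without the sample of conflicting labels there were 8 (GW3965 day 22) and 4 (GW3965 day 70). Without the library of RIN 2.6, or with RIN as a term, 2 were called between the diets at day 70, and with RIN as a term 35 members passed the threshold relative to the family in place of 59, both as a description. With counts of copies added, an alternative chosen after seeing the data, 1 was called on STD at day 22. Without day 43 libraries of RIN under 9, also chosen after seeing the data, 18 were called on GW3965. The cause of the other changes was not tested.

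Leaving out 1 sample gave 0 to 1 calls for STD day 22, 0 to 3 for STD day 70, 0 to 20 for GW3965 day 22, 1 to 11 for GW3965 day 70, 0 to 3 between the diets at day 43 (3 without STD day 43 replicate 2) and 0 to 2 at day 70. At GW3965 day 22, 7 to 11 were called without any 1 of the day 0 samples. At GW3965 day 70, 3 to 4 were called without GW3965 day 0 (22 diet days) replicate 1 or either 43-day sample. Between the diets at day 70, 0 were called without any 1 STD sample or GW3965 replicate 1, and 2 without GW3965 replicate 2.

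Replicate numbers are shared by the groups but do not pair samples: over 13 pairs the correlation of deviations ran from -0.37 to 0.20. With a replicate block 1 was called on STD at day 70, 8 on GW3965 at day 22 and 0 between the diets at day 70.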

Other observations

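Markers of dividing cells and of stem cells with Wnt signalling were mostly called at day 70 on STD. At that day 2 members were higher and 1 lower, and 1 of the 2 was Rps19bp1, which is no part of the ribosome. Of 6 markers of proliferating cells, 1 was higher and 1 lower at day 43 on STD and 0 were higher and 1 lower on GW3965 (edgeR, FDR < 0.05), with medians of -0.13 and -0.11, where 30.8% of all genes were higher and 24.2% lower on STD and 26% and 19.3% on GW3965. At day 70 all 6 were higher on STD, where 16.7% of all genes were, and 3 on GW3965, where 14.7% were, with medians of 1.52 and 0.89. Of 5 stem and Wnt markers, 2 were higher at day 43 on STD and 2 lower on GW3965, and at day 70 5 were higher on STD and 1 on GW3965, with medians of 2.00 and 1.02. No test of a relation between these markers and the members was run.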
